A study of Homo sapiens with 6 samples.

Results

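The regions described here are dense clusters of distal peaks in A375 cells, a line of human melanoma cells. They are stretches of 50 kb in which the peak table of an ATAC-seq experiment holds 10 or more peaks away from start sites. ATAC-seq marks open chromatin by where the Tn5 transposase can insert its adapters. A peak was kept when it lay on chromosomes 1 to 22 with its centre more than 3 kb from every start site of a protein-coding or lncRNA transcript in GENCODE release 44. Chromosomes were then divided into bins of 50 kb from their first base, and the members are all peaks of bins with 10 or more kept peaks. This gave 6400 member peaks in 495 dense bins, out of 108380 kept peaks in 40105 bins and 152800 peaks in all. The members were chosen by the positions of peaks and by their number in a bin, and no difference between conditions entered the choice. The peak table was itself made from these libraries.

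The 6 libraries came from A375 cells made to overexpress HMGB2 (HMGB2OE, 3 libraries) and from A375 cells carrying an empty vector (3 libraries). HMGB2 is a high mobility group box protein that binds and bends DNA. The HMGB2OE line was made by stable lentiviral transduction, and the empty vector cells were the only control. The study calls the 3 libraries of a line technical replicates of a single experiment, so p-values here measure only the spread between these libraries.

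Distal peaks in a human cell line are mostly enhancers and other regulatory DNA, bound by transcription factors that open the chromatin. Enhancers often lie in groups around genes that the cell uses strongly, and such groups have several neighbouring elements that act on a shared gene. A dense group of peaks in a reference genome can also lie in repeated DNA, such as centromeric satellites or ribosomal gene arrays, where short reads fit many places equally well. Peaks of the second kind give the accessibility of a repeat family and not of a single place.

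4 stretches of sequence show what the clusters are made of. They were read from the hg38 reference, 200 bases each, 5′ to 3′. Capitals mark a searched motif word. The first 2 stretches are the centres of the member peaks with the largest rise and the largest fall in HMGB2OE among named peaks. The first is in an intron of ITPR1, at chr3:4746568-4746767 on the plus strand. The second is intergenic, with GTF3C6 the nearest gene, at chr6:110918627-110918826 on the plus strand. The third is the centre of the most accessible peak of the bin with most peaks, at chr9:60569833-60570032 on the plus strand. The fourth is the centre of the most accessible peak of the densest bin of unique sequence, near SPRY4, at chr5:142280190-142280389 on the plus strand. The fourth was chosen after values were seen.
ITPR1 peak, with the MITF E-box CACGTG: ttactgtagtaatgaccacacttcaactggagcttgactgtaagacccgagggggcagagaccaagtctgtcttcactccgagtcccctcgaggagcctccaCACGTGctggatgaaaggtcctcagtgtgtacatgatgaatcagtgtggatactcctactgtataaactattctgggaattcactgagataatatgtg
GTF3C6 peak, with none of the words: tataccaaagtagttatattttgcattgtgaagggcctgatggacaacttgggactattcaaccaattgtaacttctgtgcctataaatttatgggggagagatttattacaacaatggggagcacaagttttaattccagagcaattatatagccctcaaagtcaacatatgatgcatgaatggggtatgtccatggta
Chromosome 9 cluster, with a CENP-B box and the SOX word ACAAAGG: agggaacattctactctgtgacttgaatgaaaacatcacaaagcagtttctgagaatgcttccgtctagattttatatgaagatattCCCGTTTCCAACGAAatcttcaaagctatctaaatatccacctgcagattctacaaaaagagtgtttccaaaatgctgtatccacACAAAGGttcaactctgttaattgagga
SPRY4 cluster, with the TFAP2 word GCCNNNGGC: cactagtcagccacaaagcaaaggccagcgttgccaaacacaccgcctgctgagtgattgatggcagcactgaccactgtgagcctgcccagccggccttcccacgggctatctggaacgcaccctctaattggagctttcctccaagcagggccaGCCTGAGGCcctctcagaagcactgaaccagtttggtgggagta

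HMGB2 and the line itself were checked first. A peak over the coding exons of HMGB2, on chromosome 4 from 173332680 to 173333181, had normalized counts of 32.0 ± 15.7 (SD, n = 3) in empty vector and 98.4 ± 5.31 in HMGB2OE libraries. This is a log2 difference of 1.67 (standard error 0.249, edgeR adjusted p = 0.000113), and reads from the vector's cDNA and from the gene itself cannot be told apart there. A normalized count is scaled to the mean effective library size of the 6 libraries. Promoter peaks of the melanocyte markers SOX10, MITF, PMEL, S100B and TFAP2A stood at the 83.9th to 99.9th percentile of promoter peaks, while MLANA, TYR and DCT had none. PTPRC, a leukocyte gene, had none either, and that of PECAM1, an endothelial gene, was at the 2.73rd percentile. Markers of other cell types were not all low: the T cell gene CD3E was at the 56.2nd, the epithelial gene EPCAM at the 53.3rd, and the keratinocyte genes KRT5 and KRT14 at the 38.8th and 74.8th. Their part in the results was not tested. Libraries held 26910189 to 45645294 counts in peaks.

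The dense bins fell into 2 kinds when each peak was read for repeated sequence, a split made after the data were seen. In 423 bins the median member peak had at most 50% of its 31-base words at more than 1 place in hg38, and these are called unique bins. In the other 72 bins, called repeated bins, more than 50% of the words of the median peak recurred. Unique bins held 5335 members, and repeated bins held 1065. The median normalized count of a member peak was 97.3 in unique bins and 25.7 in repeated bins, against 90.3 in distal peaks outside dense bins. Among unique members 59.7% lay in introns and 33% between genes, while 85.7% of repeated members lay between genes. Repeated bins lay a median of 929 kb from the nearest protein-coding start, and unique bins 27.8 kb.

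**Figure D1:**
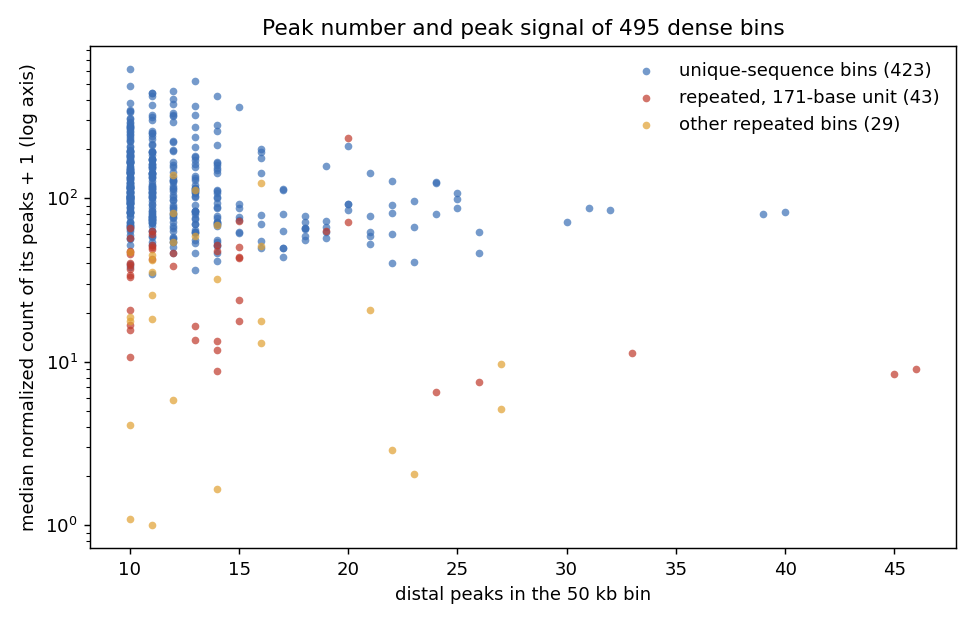
Each point is a dense bin. The x axis gives its number of distal peaks and the y axis, on a log scale, the median over its peaks of the mean normalized count, plus 1. Colours give the 423 unique bins, the 43 repeated bins with a 171-base unit and the 29 other repeated bins. The bins with most peaks, on chromosome 9, have a low signal per peak, and unique bins with 30 or more peaks have a higher one. Members of unique bins with 16 or more peaks had a median normalized count of 76.9, against 115 in unique bins of 10 to 12.

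Values just inside and just outside the limit are given without a test. There were 169 bins with 10 kept peaks and 283 with 9. The median bin count was 2099 in the former and 2069 in the latter, and the median log2 difference of a bin was −0.08 and −0.05.

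None of the unique bins with 25 or more peaks was called. The bin with most unique peaks held 40, on chromosome 5 from 142250001 to 142300000, and its nearest gene was SPRY4, a feedback inhibitor of receptor tyrosine kinase signalling, with a start 50.3 kb away. Its summed normalized counts were 4721, 4675 and 4808 in empty vector and 5002, 4523 and 5045 in HMGB2OE libraries. The groups overlapped, with a log2 difference of 0.04 (standard error 0.062, adjusted p = 0.764). A bin of 39 peaks on chromosome 10 from 97350001 to 97400000 lay mostly in RRP12, a gene of ribosome assembly. Its peaks were of even height, since the most accessible held only 4.32% of the bin's signal, against 16.9% in the SPRY4 bin. The RRP12 bin had a log2 difference of 0.09 (standard error 0.077, adjusted p = 0.510). Next came a bin of 32 peaks whose mean centre lay 0.644 kb from a start of FGF18, which encodes a fibroblast growth factor, at −0.10 (standard error 0.069, adjusted p = 0.402).

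Then followed a bin of 31 peaks near TM4SF4 that lay mostly in WWTR1, the gene of the Hippo pathway coactivator TAZ, and a bin of 30 peaks in SERPINE2, a secreted inhibitor of serine proteases. Their log2 differences were 0.07 (adjusted p = 0.504) and −0.05 (adjusted p = 0.697). The other unique bins of 25 or 26 peaks had PABPC4L, TIMP3, EGR1, PHYKPL and NFATC2 as nearest genes, with log2 differences from −0.24 to 0.10, and none was called. Over the alternative settings the PABPC4L bin ran from −0.37 to −0.16, and under 2 of them it was called lower. The bins after the SERPINE2 bin were named after their values were seen, because repeated bins took 5 of the 10 places among bins with most peaks.

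Some clusters ran over several adjoining bins. There were 51 runs of 2 or more dense bins, which held 123 of the 495 bins. The longest run was 450 kb of repeated sequence on chromosome 1 from 124350001 to 124800000, with 9 bins and 126 peaks. The next was the WWTR1 run, 200 kb on chromosome 3 from 149450001 to 149650000, with 97 peaks over TM4SF4 and WWTR1. Its 4 bins had log2 differences from −0.18 to 0.10. A run of 4 bins with 59 peaks over ZNF362 and PHC2 on chromosome 1 ranged from −0.07 to 0.25. A run of 4 bins with 40 peaks lay in NEDD4L, a ubiquitin ligase gene, on chromosome 18, and ranged from −0.17 to 0.27. The fifth, of 3 bins and 124 peaks, was the repeated cluster on chromosome 9.

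Few member peaks differed between HMGB2OE and empty vector. A peak was called when edgeR's adjusted p-value was under 0.05 over all tested peaks and the fold was at least 1.5. Of the 6400 members 6096 passed the filter on low counts, and 299 of the 304 that did not were in repeated bins. The calls were 54 members higher, 0.886% of those tested, where 1.87% of all 150117 tested peaks were called higher. Another 82 members, or 1.35%, were called lower, where 1.44% of all tested peaks were. The median log2 difference was −0.06 over tested members and 0.02 over distal peaks outside dense bins. In 133 of the 136 called members the libraries of the groups did not overlap, which a call on these same libraries favours. Called or not, 21.4% of tested members and 25.1% of all tested peaks did not overlap. The libraries came from bulk cells, so a change in the share of cells with an open site and a change in each cell cannot be told apart.

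The calls were thinly spread. They lay in 91 dense bins, and 404 had none. Bins with a rise numbered 40, bins with a fall 53, and 2 bins had both. Of the calls 115 were in unique bins, with 53 higher and 62 lower. Among peaks of like signal, with mean normalized counts from 89.9 to 193, 2.0% of unique members were called higher and 1.5% lower, against 3.58% and 2.38% of the other distal peaks. The 3 other ranges of signal had lower shares in unique members too, and that difference was not tested.

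Summed over a bin, the differences were small. A bin was called at an adjusted p under 0.05 over all tested bins with a fold of at least 1.2. Of the 495 dense bins 5 were called higher, or 1.01%, where 5.70% of all 39752 tested bins were. Among less dense bins the share called higher was 5.45% in bins with 1 kept peak and 6.75% in bins with 2 or 3. From there it fell with peak number, to 4.81% with 4 to 6, 2.88% with 7 or 8 and 1.41% with 9. The 24 called lower made 4.85%, where 4.58% of all tested bins were. In 28 of the 29 the libraries did not overlap, which a call on these same libraries favours. Over all tested bins, called or not, 29.8% did not overlap. The median over dense bins was −0.07 with an SD of 0.17, and over all tested bins 0.01 with an SD of 0.29. The SD was 0.38 in bins with 1 kept peak, 0.15 in bins with 9, 0.13 in bins with 11 or 12 and 0.25 in bins with 16 or more. In bins with 16 or more, 3 of 74 were called higher and 6 lower.

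**Figure D2:**
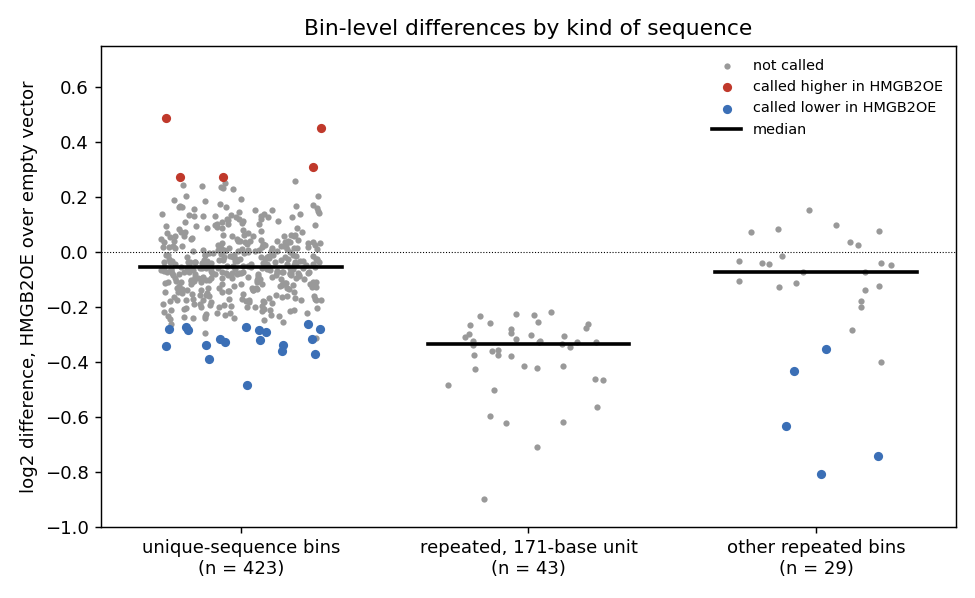
Each point is a dense bin and the y axis is its log2 difference of HMGB2OE over empty vector. Bins are in columns by kind of sequence, with a black line at the median of each kind, and points are spread sideways only to be seen. Medians were −0.06, −0.33 and −0.07. The called bins are the 5 higher and 19 lower of unique sequence and the 5 lower among the other repeated bins.

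The largest bin rise was in an intergenic cluster of 22 peaks on chromosome 17 from 27050001 to 27100000, 228 kb from its nearest protein-coding start, that of WSB1, a subunit of a ubiquitin ligase. Its summed normalized counts were 1289, 1224 and 1297 in empty vector and 1751, 1726 and 1870 in HMGB2OE libraries. Every HMGB2OE library was above every empty vector library. The rise was 0.49 on the log2 scale (standard error 0.065, adjusted p = 4.73e-05). Of its 22 peaks 21 were above 0 and 5 were called higher. The median of the 71 other tested peaks within 0.5 Mb was 0.01, and the strongest promoter peak of WSB1 was at −0.17 (adjusted p = 0.283). The next bin, also dense with 17 peaks, was at 0.26 (adjusted p = 0.0365), with a fold just under 1.2.

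A cluster of 20 peaks close to the end of chromosome 7, from 250001 to 300000, rose next, between FAM20C, a kinase of secreted proteins, and FOXL3, a forkhead gene. Its counts were 1503, 1152 and 1459 in empty vector and 1821, 1699 and 2098 in HMGB2OE libraries, without overlap. On the log2 scale the rise was 0.45 (standard error 0.088, adjusted p = 0.00179), 19 of 20 peaks were above 0, and 5 were called.

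The bin nearest to FRMD8 on chromosome 11, from 65400001 to 65450000, covers NEAT1, the long non-coding RNA around which paraspeckles form. Its counts were 3447, 3374 and 3680 in empty vector and 3849, 3991 and 4848 in HMGB2OE libraries, a log2 difference of 0.27 (standard error 0.075, adjusted p = 0.0200). The groups did not overlap, and HMGB2OE replicate 3 was the highest. Without that library the difference was 0.16 (adjusted p = 0.160), and the call was lost. The call was also lost without empty vector replicate 1 or 2, and with DESeq2's size factors or Wald test and with the GC offset, alone or with the replicate block, its fold was under 1.2. All 4 called peaks lay in NEAT1, which the annotation gives from 65422774 to 65445540. The last 12 members of the bin, over 14.6 kb from 65434419 to 65449001, were all above 0 with a median of 0.56, while the first 7 members of the FRMD8 bin lay between −0.20 and 0.41.

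The other 2 rises were in NEDD4L and near SOX5. The NEDD4L bin of 10 peaks was at 0.27 (standard error 0.063, adjusted p = 0.00604), with non-overlapping libraries and 2 called peaks, and 6 of 10 above 0. Without empty vector replicate 1 or HMGB2OE replicate 2, and with the GC offset, alone or with the replicate block, its fold was under 1.2. The adjoining dense bin in NEDD4L held 2 peaks called lower, at −0.71 (adjusted p = 0.000304) and −0.65 (adjusted p = 0.00309). The SOX5 bin of 15 peaks, near a gene for a transcription factor of the SOX family, was at 0.31 (standard error 0.098, adjusted p = 0.0427). All 15 of its peaks were above 0 and none was called. Its libraries overlapped, with 998, 732 and 765 in empty vector and 954, 962 and 1160 in HMGB2OE. Its call was lost on leaving out any library but empty vector replicate 1, with differences from 0.21 to 0.36, and with the DESeq2 Wald test (adjusted p = 0.0555).

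Among unique bins the largest fall was near SESN2, a gene of the response to stress and starvation, on chromosome 1 from 28250001 to 28300000. Its counts were 834, 837 and 821 in empty vector and 611, 569 and 603 in HMGB2OE libraries, which did not overlap. The log2 difference was −0.48 (standard error 0.076, adjusted p = 0.000269). All 11 peaks lay at or beyond the 3′ end of SESN2 and were below 0, yet none was called on its own. The strongest promoter peak of SESN2 was at −0.31 (adjusted p = 0.00772).

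The ABHD12 bin, on chromosome 20 from 25300001 to 25350000, fell by 0.37 on the log2 scale (standard error 0.071, adjusted p = 0.00147). ABHD12 encodes a lipid hydrolase. Counts were 1442, 1414 and 1568 in empty vector and 1227, 1081 and 1106 in HMGB2OE libraries, without overlap. The first peak of the bin was at 0.04, and the 13 that followed were below 0 over 26.4 kb, with a median of −0.84 and 6 calls. The bin lay inside the gene, whose strongest promoter peak was at 0.01 (adjusted p = 0.945).

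Smaller falls followed near GPR32, a G protein-coupled receptor gene, and near TGFB2, which encodes a ligand of the TGF-beta receptors. The GPR32 bin was at −0.39 (standard error 0.083, adjusted p = 0.00348), with 11 of 13 peaks below 0 and no called peak. The TGFB2 bin of 10 peaks, 136 kb from its start, was at −0.36 (standard error 0.069, adjusted p = 0.00167), and the strongest TGFB2 promoter peak at −0.04 (adjusted p = 0.874). The other dense bin of TGFB2 was at 0.08 (adjusted p = 0.446). Long runs on 1 side of 0 also occurred without a call: all 18 peaks of the EMP1 bin, near a membrane protein gene, were below 0, and the bin was at −0.25 (adjusted p = 0.0134), past the p threshold with a fold under 1.2. The EMP1 bin was picked for its run. The other 15 lower bins of unique sequence lay between −0.34 and −0.26, with 10 called peaks in all. They include bins in MMP16, a membrane metalloprotease gene, at −0.34, in STK4, a kinase gene of the Hippo pathway, at −0.33, and near FST, which encodes an activin antagonist, at −0.34. These 3 were named after their values were seen.

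**Figure D3:**
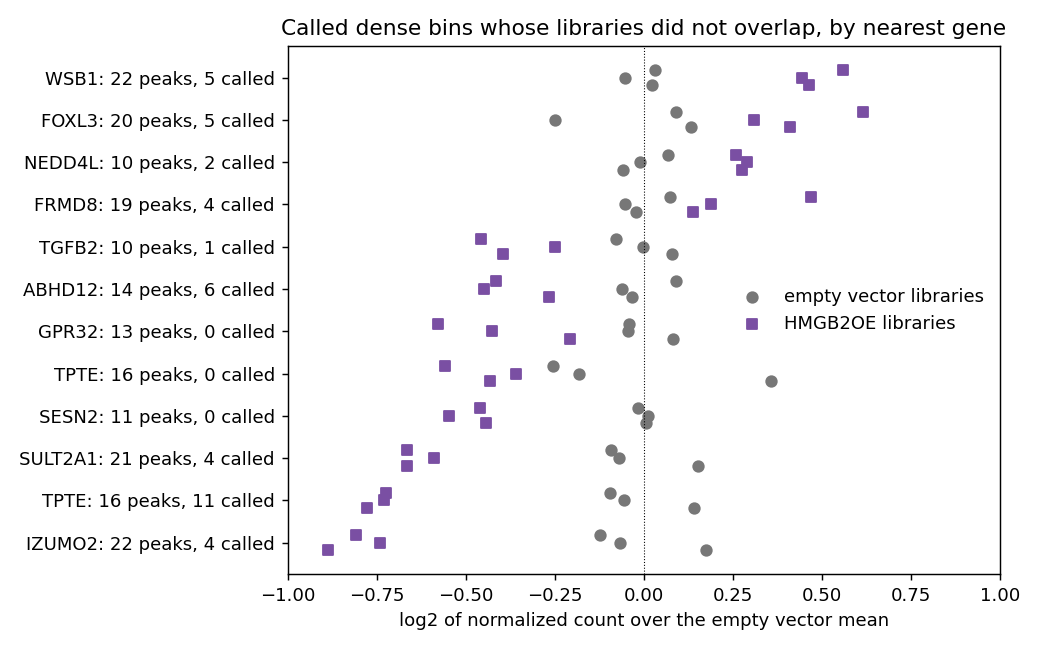
Rows are 12 of the 28 called bins whose libraries did not overlap, the 4 rises and the 8 largest falls, labelled by nearest gene with the number of distal peaks and of called peaks. The x axis is the log2 of a library's normalized count over the empty vector mean of that bin. Grey circles are empty vector and purple squares HMGB2OE libraries; 4 bins lie to the right and 8 to the left.

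**Figure D4:**
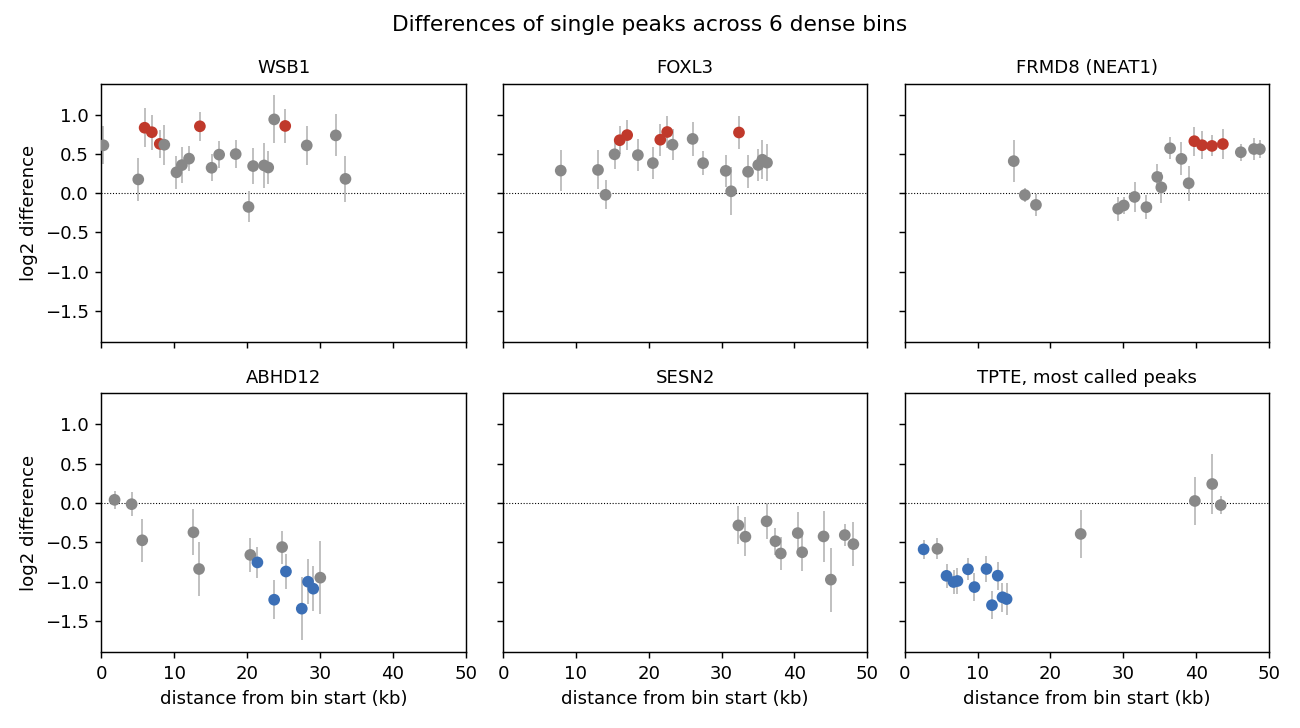
Each panel is a dense bin, named by its nearest gene. Points are tested peaks, with the distance of the peak centre from the bin's start in kb on the x axis and the log2 difference of HMGB2OE over empty vector on the y axis, and bars are standard errors. Red peaks were called higher and blue peaks lower. In the WSB1 bin 21 of 22 peaks were above 0, and in the SESN2 bin 11 of 11 were below 0. Both bins were named for their large summed differences, which favours peaks of like sign. These counts thus cannot show how alike neighbouring peaks were.

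The log2 differences of peaks in a cluster were spread, and that spread includes the measurement error of each peak. In unique bins the SD of log2 differences was 0.26 among peaks of the same bin and 0.14 between bins, so that bins held 22.7% of the variance. In bins with 5 to 9 distal peaks that share was 17.1%. Measurement error was not subtracted, so these values cannot show how alike neighbouring peaks were. Across 423 unique bins the bin's log2 difference and the median of peaks within 0.5 Mb had a Pearson's r of 0.35 and a Spearman's rho of 0.33. With the nearest gene's strongest promoter peak the values were 0.23 and 0.24, over 393 bins. With the median GC content of the bin's peaks they were 0.31 and 0.37. All these values come from the same libraries and are given as descriptions.

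The largest differences of single peaks lay in called and in not called bins. The largest rise was the ITPR1 peak printed above, in a gene for a calcium channel of the endoplasmic reticulum. It held 66.7, 47.3 and 64.4 normalized counts in empty vector and 136, 92.6 and 150 in HMGB2OE libraries. The log2 difference was 1.10 (standard error 0.201, adjusted p = 0.00104), and the other 9 peaks of its bin lay between −0.15 and 0.37. A peak in an intron of LHFPL2, a gene of a tetraspan membrane protein, went from 40.7 ± 6.32 (SD, n = 3) to 85.8 ± 5.94, with a log2 difference of 1.07 (adjusted p = 0.00277). It is on chromosome 5 from 78560138 to 78560639. Other rises were near UBALD2 at 1.03 (adjusted p = 0.00911) and near ATOH8, a helix-loop-helix factor gene, at 0.86 (adjusted p = 0.00519). Another was a peak of the WSB1 bin at 0.86 (adjusted p = 0.0145), on chromosome 17 from 27074978 to 27075479, whose call was lost without empty vector replicate 2 or 3 or HMGB2OE replicate 3, at 0.64 to 0.78.

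The largest fall was the GTF3C6 peak printed above, near a gene for a subunit of the RNA polymerase III factor TFIIIC. Its counts were low, at 27.8, 21.5 and 37.4 in empty vector and 10.2, 9.17 and 10.1 in HMGB2OE libraries, and 55.7% of its words recurred in hg38. The log2 difference was −1.53 (standard error 0.435, adjusted p = 0.0298), and the call was lost on leaving out any library but empty vector replicate 2, at adjusted p-values up to 0.153. Falls of −1.35 in ABHD12 (adjusted p = 0.0416) and −1.28 in a cluster over 1000 kb from PABPC4L (adjusted p = 0.0493) were as sparse and lost the call without any of 4 and 5 libraries, at adjusted p-values up to 0.177 and 0.193. Both also lost it with the DESeq2 Wald test, and the second by library size only and with the GC offset, alone or with the replicate block.

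2 falls had more counts and no such loss. A peak 3.87 kb from the start of OCIAD2, on chromosome 4 from 48910445 to 48910946, held 197, 194 and 164 in empty vector and 88.4, 68.4 and 75.4 in HMGB2OE libraries. On the log2 scale this was −1.26 (standard error 0.157, adjusted p = 1.38e-05), and its neighbours 0.8 kb to either side were at −0.07 and −0.41. A peak near SMURF2, the gene of a ubiquitin ligase that acts on TGF-beta receptors, on chromosome 17 from 64682250 to 64682751, went from 79.6 ± 15.4 (SD, n = 3) to 33.2 ± 4.55. Its log2 difference was −1.25 (standard error 0.243, adjusted p = 0.00184). The SMURF2 bin also held a peak that rose by 0.80 (adjusted p = 0.00538), from 64685597, and the bin as a whole was at −0.12 (adjusted p = 0.236). The sixth fall, of −1.30, was in the repeated bin on chromosome 21 described next.

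The repeated bins held 5 of the 24 bin falls, 20 of the 82 peak falls and 1 of the 54 peak rises. They were 72 of the 495 dense bins, with 766 of the 6096 tested members. Of these members 2.61% were called lower and 0.131% higher, where 1.44% and 1.87% of all tested peaks were. Bins called lower made 6.94%, where 4.58% of all tested bins were. Most of the peak falls lay in the IZUMO2 and SULT2A1 bins and the first of the chromosome 21 bins described below. The deepest bin fall was near IZUMO2 on chromosome 19, from 50100001 to 50150000, with 949, 803 and 772 normalized counts in empty vector and 455, 503 and 480 in HMGB2OE libraries. This gave a log2 difference of −0.81 (standard error 0.088, adjusted p = 5.26e-06). Of its 22 peaks only 7 passed the filter on low counts, and 4 of them were called lower. A second bin on that chromosome, near SULT2A1 from 47900001 to 47950000, was at −0.64 (standard error 0.078, adjusted p = 1.93e-05), with 1238, 1061 and 1045 against 703, 741 and 703. Both sets of libraries were apart. These bins share sequence: 47.4% of the 31-base words under the SULT2A1 peaks occur under the IZUMO2 peaks, and 51.2% the other way. Reads that lie wholly in identical sequence cannot be told apart, so these falls cannot be taken as independent of each other. How far shared reads enter both was not tested.

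The next was a bin on chromosome 21 from 9000001 to 9050000, 1505 kb from the start of its nearest protein-coding gene, TPTE. It held 2891, 2523 and 2453 in empty vector and 1531, 1581 and 1586 in HMGB2OE libraries, a log2 difference of −0.74 (standard error 0.068, adjusted p = 3.45e-07). The first 13 of its 16 peaks were below 0, from −1.30 to −0.39 over 22.1 kb, and 11 were called. The other 3, towards the end of the bin, had a median of 0.03. A bin at 8400001 to 8450000 on that chromosome was at −0.43 (adjusted p = 0.0176), without empty vector replicate 1 at −0.24 (adjusted p = 0.119) and without HMGB2OE replicate 3 at −0.38 (adjusted p = 0.0773). The fifth, near OR11H1 on chromosome 22, was at −0.35 (adjusted p = 0.0376).

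Most repeated bins carried the mark of centromeric DNA. In 43 of the 72 the reference best matched itself when shifted by 171 bases or a multiple of it, within 3 bases. Alpha satellite DNA, the main repeat of human centromeres, is built of units of that length. The CENP-B box, the site of a centromere protein, was searched on both strands by its fixed bases TTCG, A and CGGG, with 4 and then 2 free bases between them. It lay in 85.7% of the 649 peaks of these 43 bins, in 0 of 416 peaks of the other repeated bins, in 1 of 5335 peaks of unique bins and in 0.735% of all peaks. The bins with most peaks were of this kind, 46, 45 and 33 on chromosome 9 from 60550001 to 60700000, where the word of median frequency occurred 899.5 to 1090.5 times in hg38. Their median peaks held only 7.39 to 10.3 normalized counts. The bin of 27 peaks near EMB on chromosome 5 was repeated with a best shift of 2214 bases, outside that limit, and its counts were 818, 94.8 and 565 in empty vector and 313, 198 and 589 in HMGB2OE libraries.

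The 43 bins with the 171-base unit all had log2 differences below 0, from −0.90 to −0.22 with a median of −0.33, and none was called with all 6 libraries. Empty vector libraries differed among themselves by more than that: the summed normalized counts were 59029, 14253 and 36842 in empty vector and 23095, 19530 and 42884 in HMGB2OE libraries. Without empty vector replicate 1 the median was 0.17, and without empty vector replicate 2 it was −0.75. The direction thus turned on a single library. Calls did too: without empty vector replicate 2 the chromosome 9 bin of 46 peaks was called lower, at −0.87 (adjusted p = 0.0173). Many of these bins share words, and 26 fell into a single group linked by at least 5% shared words, so they cannot be taken as separate measurements. None of the 498 tested member peaks of the 43 bins was called.

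**Figure D5:**
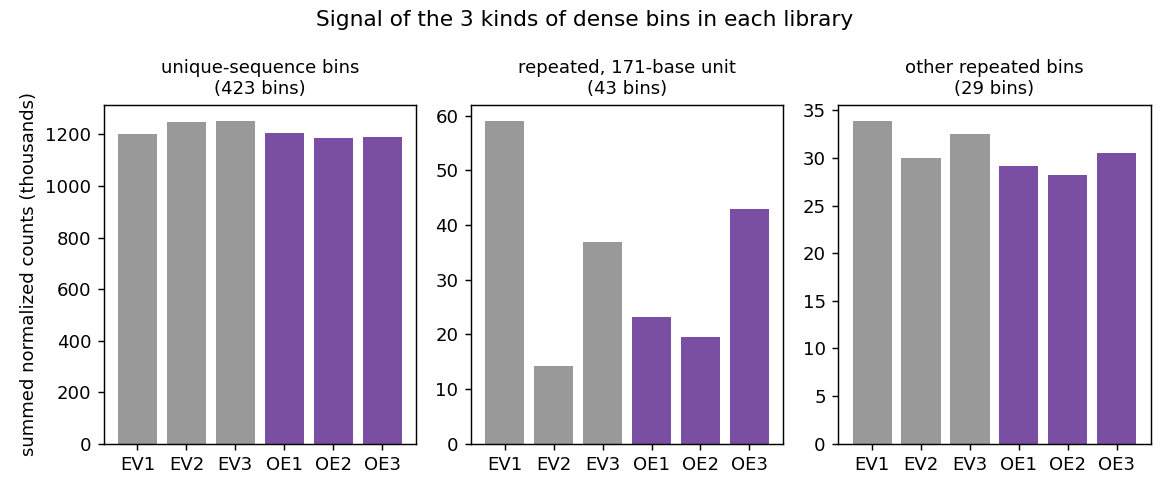
Bars give the summed normalized counts of the 3 kinds of dense bins in each library, with EV for empty vector in grey and OE for HMGB2OE in purple, on separate axes that start at 0. Libraries are close in the 423 unique bins. In the 43 bins with the 171-base unit they range from 14253 to 59029 counts.

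The other 29 repeated bins were a mixed set with a median of −0.07. The bin near RHOU on chromosome 1 from 228600001 to 228650000 held 27 peaks and 18 annotated ribosomal RNA genes, and its sequence matched itself at a shift of 2241 bases. It held 871, 812 and 884 in empty vector and 683, 823 and 823 in HMGB2OE libraries, a log2 difference of −0.14 (adjusted p = 0.297). The 4 bins near SRGAP2B and SRGAP2, which are copies of a gene duplicated in humans, shared words pairwise and ranged from −0.13 to 0.10.

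Lists of melanoma genes touched few dense bins. The lists were fixed for this work with earlier results of these data known, and a bin counted when its nearest or host gene was listed. The list of MAPK output and feedback, the pathway that is overactive in A375, had 9 bins over SPRY4, EGR1, DUSP4 and PHLDA1. None was called, and the median was −0.04. The list of YAP and TEAD targets had 9 bins over WWTR1, AMOTL2, CRIM1, TEAD1 and TGFB2, with 1 called lower, the TGFB2 bin, and a median of −0.11. The median over all dense bins was −0.07. The list of TGF-beta and BMP signalling added the same TGFB2 bins.

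Of the melanocyte lineage list 2 of 25 genes had a dense bin. SOX10, the neural crest factor of melanocytes, had 12 peaks in a bin on chromosome 22 with 3967 ± 154 (SD, n = 3) normalized counts in empty vector and 3937 ± 27.1 in HMGB2OE libraries. The log2 difference was −0.01 (standard error 0.060, adjusted p = 0.938). LEF1, a factor of Wnt signalling, had 10 peaks at 0.17 (adjusted p = 0.136), with 1 called higher. The list of the undifferentiated and invasive state had TGFBI, TEAD1 and CD44, at 0.02, −0.04 and −0.08. The extracellular matrix list had LAMC1 and THBS1 at −0.12 and −0.11, the list of inflammation and interferon had IRF1 at −0.09, and no bin of these was called. NRP2, a semaphorin receptor, was at −0.02. EPHA3 on the axon guidance list was nearest to 2 repeated bins, at −0.46 and −0.43, both not called with all 6 libraries. No gene of AP-1 or CREB/ATF factors had a dense bin.

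Motif words were counted in the peaks as a description of their sequence. The AP-1 word TGAGTCA, the site of Jun and Fos factors, was searched with the other words on both strands of each peak. It lay in 20.8% of the 6400 members, in 32.2% of the distal peaks outside dense bins and in 27.8% of all peaks. In unique bins it was in 24.1% of members, falling from 28.4% in bins of 10 to 12 peaks to 21.5% in bins of 13 to 15 and 15.7% in bins of 16 or more. The median normalized count of these members fell alongside, from 115 to 91.5 and 76.9. Signal was not held equal in that comparison. The most accessible peak of each unique bin held the AP-1 word in 40.4% of 423 bins, and the other peaks in 22.7%. Above 193 normalized counts it was in 39.6% of unique members and 43.2% of other distal peaks, and below 52.1 in 15.6% and 25.1%. The share was lower in unique members in each of 4 ranges of signal, and no test was made of it.

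The other words differed less. The RUNX word TGTGGTT was in 12.1% of unique members and 13.2% of other distal peaks, the SOX word ACAAAGG in 10.9% and 13.1%, and the TEAD word GGAATG in 28.7% and 30.6%. The TFAP2 word GCCNNNGGC was in 16.9% and 14.6%, CACGTG in 6.58% and 5.86%, CCGGAAG of ETS factors in 2.01% and 2.27%, and the CRE word TGACGTCA in 0.525% and 0.423%. In repeated bins the SOX word was in 33.8% and the TEAD word in 38.3% of members, and AP-1 in 4.32%. Among called members the AP-1 word was in 10 of the 54 higher and 17 of the 82 lower.

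The share of distal signal in dense bins overlapped between the lines at the limits used here, and did not under some alternatives. The share of distal counts that fell in member peaks was 6.54%, 6.34% and 6.48% in empty vector and 6.23%, 6.18% and 6.36% in HMGB2OE libraries. The means were 6.46% ± 0.105 and 6.26% ± 0.0896 (SD, n = 3). The groups overlapped and the exact permutation test gave p = 0.20, two-sided, where 3 against 3 cannot go below 0.10. As a share of counts in all autosomal peaks, the means were 3.50% and 3.45%, with p = 0.40 from that exact test. In unique bins alone the shares were 6.07%, 6.12% and 6.14% against 5.97%, 5.94% and 5.99%. These did not overlap, with p = 0.10 from the exact permutation test, the smallest it can give. In repeated bins the share ranged from 0.217% to 0.469% in empty vector and from 0.239% to 0.370% in HMGB2OE libraries, p = 0.70 from the same exact test.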

How the data were processed

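Open chromatin was profiled by ATAC-seq in 6 libraries, 3 of A375 cells with empty vector and 3 of HMGB2OE cells. Per the study's methods and the submitters' processing notes, reads were trimmed (Trim Galore 0.6.7, cutadapt 4.0), placed on hg38 by Bowtie 2 and cleared of duplicates (Picard). Peaks came from MACS2, with public melanocyte data serving as the control, and were merged into a single atlas without blacklisted regions. The deposited values are raw counts of reads per peak and library, made by the authors with featureCounts, neither normalized nor pooled. How reads with several alignments were treated, which bears on counts in repeated bins, and any Tn5 shift are not given in the sources used here.

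Counts of peaks, and sums of kept peaks per bin, were fitted with edgeR 4.0.16 (R 4.3.3). The fit used TMM factors, the filterByExpr filter and quasi-likelihood F tests, with the line as the only term. It covered 150117 peaks and 39752 bins, and Benjamini-Hochberg adjustment ran over all of them. Standard errors are the log2 difference over the square root of F. Shares were compared by an exact permutation test (scipy 1.17.1). The scripts were tested on simulated data. Of 200 peaks with a planted log2 change of 1.5, 94% were called, with 8 false calls. Of 200 bins of any peak number with a planted change of 0.6, 60% were called, with 9 false calls. A bin that was not called was thus not shown to be unchanged. Libraries of a line differed beyond sampling noise (chi-square per degree of freedom 2.49 to 4.65). The nearest gene has the protein-coding start closest to the mean centre of a bin's kept peaks.

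The members, gene lists and words were chosen with earlier results of these data known. Named bins are the 10 with most kept peaks, up to 8 called rises and 8 called falls without overlap of libraries, the 5 longest runs and up to 4 per gene list. Named peaks are the 6 strongest rises and 6 strongest falls without overlap, at most 1 per bin. A few results of these rules are not reported here. The split into unique and repeated bins, the repeat unit, the CENP-B box and runs of peaks of like sign were chosen after the data were seen. Alternatives covered scaling, DESeq2 1.42.0, filters, a replicate block, GC offsets, each library left out, fold limits, peak numbers and bin borders. Restriction to unique bins was added after seeing the data.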

Additional observations from a re-analysis of the deposited data

How the results depend on the processing

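Counts of calls moved with the limits set and with the libraries used. Member peaks called higher were 54, and 121 with no fold limit, 160 with bins of 8 or more kept peaks and 32 with bins of 12 or more. Member peaks called lower were 82, and 188, 166 and 39 under these changes. With no fold limit 5164 of all 150117 tested peaks were higher and 4546 lower. Of all 39752 tested bins 2442 were then higher and 2172 lower. The limits on kept peaks also change how many peaks and bins are members, so counts under them do not compare as shares. Dense bins called higher were 5, and 3 with the DESeq2 Wald test, 13 with no fold limit and 24 with bins of 8 or more kept peaks. Dense bins called lower were 24, and 47 with no fold limit, 59 with 8 or more and 11 with 12 or more kept peaks, and 15 after subtracting the median of peaks within 0.5 Mb. Leaving out each library gave 27 to 70 member peaks higher, 58 to 120 lower, 3 to 6 dense bins higher and 18 to 64 dense bins lower. Over all tested peaks the same fits gave 1821 to 2978 higher and 1552 to 2237 lower. Over all tested bins they gave 1365 to 1854 higher and 1182 to 1976 lower. The lowest count of peaks higher came without HMGB2OE replicate 3, with 31 without empty vector replicate 2, and the count of 64 bins lower also came without empty vector replicate 2, with 40 without empty vector replicate 3. Without HMGB2OE replicate 2, 3 bins were higher. Apart from the limits, the causes were not tested. In unique bins only, 53 and 62 member peaks and 5 and 19 bins were higher and lower.

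The replicate numbers were not shown to pair libraries, since deviations of same-numbered libraries had correlations of −0.088, 0.19 and 0.13. With the replicate block 62 member peaks were higher and 100 lower, 5 dense bins were higher and 27 lower, and no call of a named bin or peak changed. Over all tested peaks that fit gave 3192 higher and 2383 lower, and over all tested bins 2598 and 2046.

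Signs turned only in results that were not called. Over the libraries left out, the median of repeated bins ran from −0.677 to 0.117 and of the 171-base bins from −0.749 to 0.167. The bins ran from −0.869 to 0.268 (SPATA31A5, 46 peaks), −0.938 to 0.178 (EMB), −0.901 to 0.0214 and −1.06 to 0.125 (EPHA3, 15 and 10 peaks), −0.137 to 0.121 (TIMP3), −0.135 to 0.0401 (EGR1), −0.147 to 0.0277 (PHYKPL), −0.0422 to 0.00275 (SOX10), −0.0319 to 0.0570 (TGFBI) and −0.0946 to 0.0437 (NRP2). With the GC offset the TIMP3 and TGFBI bins were at −0.0115 and −0.0102. With the replicate block and GC offset together the SPRY4, TIMP3 and TGFBI bins were at −0.00121, −0.0251 and −0.00852. By library size only the SOX10 bin was at 0.00346.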
